A study of Homo sapiens with 18 samples.

Results

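Transcripts of 47 genes of translation initiation were measured in IMR90 cells, a line of human lung fibroblasts, without and after exposure to an oxidant. The 47 members were the rows of the deposited table whose symbol was on a list of eIF2 kinases, 4E-binding proteins and initiation factors, out of 56269 genes in the table. They were 4 eIF2 kinases, 2 4E-binding proteins, 13 eIF3 subunits, 3 eIF2 subunits, 5 eIF2B subunits, 11 cap-binding, helicase and scaffold factors, and 9 start codon and subunit joining factors. All 47 had a mean value of at least 10 over the 18 libraries and were tested. Over 6 h the cells first received PBS alone or hyaluronan (HA) of naked mole-rat skin fibroblasts at 20 μg/ml, either the control preparation cNSF-HA, which was treated with a heat-inactivated hyaluronidase, or fNSF-HA, which active hyaluronidase had partly fragmented. The groups without tBHP were collected straight after this pre-incubation. In the other groups the medium with PBS or HA was removed, 200 μM tert-butyl hydroperoxide (tBHP), an organic peroxide, was given for 1 h, and cells were collected 6 h after the start of that exposure. The groups after tBHP were therefore also 6 h older in culture and had a change of medium. In every tBHP response below, the effects of tBHP, of the added time and of the medium change cannot be told apart. There were 6 groups of 3 libraries, since every pre-incubation was sampled without and after tBHP. All came from the same line, and the study calls all its replicates biological, without saying in the labels whether the 3 were separate cultures, so the p-values measure only the spread between these libraries.

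Protein synthesis starts when the ternary complex of eIF2, GTP and initiator tRNA joins the small ribosomal subunit, which eIF3 holds open for the mRNA that the eIF4 factors bring by its cap. The 4 eIF2 kinases each sense a different stress and phosphorylate the alpha subunit of eIF2, which then blocks eIF2B, the factor that reloads eIF2 with GTP. General initiation falls, while a few mRNAs, such as that of the transcription factor ATF4, are translated more. The 4E-binding proteins form a second brake: when the kinase mTORC1 is inactive they hold the cap-binding protein eIF4E away from the scaffold eIF4G. Levels of mRNA are described here, and neither phosphorylation nor protein synthesis was measured by these libraries.

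The libraries held 20261103 to 26287660 reads on genes, and 100% of the values of each library came out as whole reads within 0.01 of a read. Replicates lay closer together without tBHP than after it: the median SD of the members within groups was 0.042 on the log2 scale without tBHP and 0.13 after, and it was larger after tBHP for 46 of the 47. The GC content of exons is here and below that of the longest annotated transcript of each gene. The deviations of the members from the mean of the 9 libraries after tBHP, which include differences between groups, ran with the GC content of their exons to an unequal extent. The Spearman correlation ranged from -0.86 in fNSF-HA + tBHP replicate 2 to 0.82 in PBS + tBHP replicate 1 (across the 47 members, which share the library). Of 10 fibroblast markers, 9 had a mean of at least 100 normalised counts in each state, as did 1 of the 6 epithelial markers. The epithelial genes KRT5, SFTPC and SFTPB were at 0 in all libraries. The 6 epithelial markers summed to 81.9 to 197.9, the 4 endothelial markers to at most 25.06 and the 4 leukocyte markers to at most 11.35. The 10 fibroblast markers summed to 623300 to 644400 without tBHP and 485400 to 747700 after it, and the part of this spread in the results was not tested. In bulk RNA, fewer cells of a kind and less RNA per cell cannot be told apart.

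After tBHP the factors did not move as a block. In PBS cells 15 of the 47 members rose (24.2% of all genes tested rose) and 15 fell (26.9% of all genes). With cNSF-HA the risers numbered 16 (24.0% of all genes) and the fallers 12 (26.8%), against 13 risers (19.2%) and 10 fallers (22.7%) with fNSF-HA. Across all 3 responses 11 members rose each time (14.6% of all genes did), namely EIF4EBP1, EIF3D, EIF3F, EIF3I, EIF3K, EIF3L, EIF2S2, EIF4B, EIF4E2, EIF1 and EIF1B. Another 9 fell each time (17.9% of all genes), namely EIF2AK2, EIF2AK4, EIF4EBP2, EIF3J, EIF3M, EIF2S1, EIF2B1, EIF4E and EIF1AX. The median log2 response of the members was -0.022 in PBS, 0.024 in cNSF-HA and 0.0085 in fNSF-HA cells, beside 0.0043, -0.0005 and -0.034 over all genes tested. Members that rose in all 3 and members that fell in all 3 stood in every class of factor except the kinases and eIF2B, where none rose in all 3. The responses are on the scale of log2(normalised count + 1), tested with limma and adjusted over the 13686 genes tested, and they share no libraries but a common estimate of the spread. Leaving out any 1 of the 6 libraries compared lowered the count of risers in PBS cells, to between 8 and 13. Without PBS replicate 3, or without PBS + tBHP replicate 3, 8 members rose (20.3% and 21.5% of all genes) and 7 rose in all 3 responses (13.4% and 13.7%). Without fNSF-HA replicate 2, 6 members fell in fNSF-HA cells (18.7%), and without fNSF-HA + tBHP replicate 3, 5 fell in all 3 responses (15.0%).

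**Figure D1:**
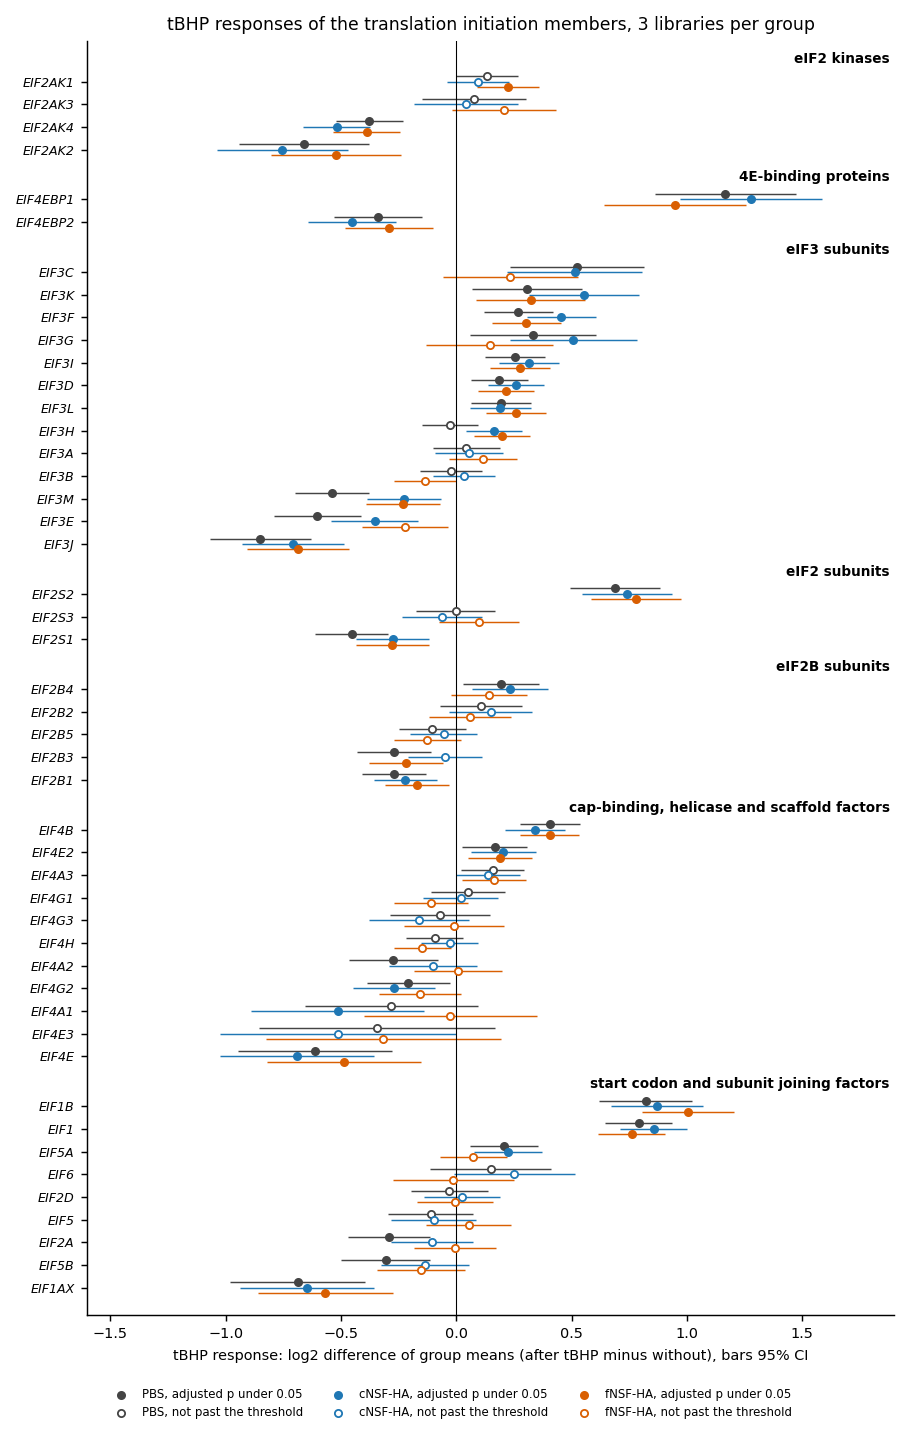
Horizontal axis: tBHP response of each of the 47 members as the log2 difference of group means, with 95% confidence intervals, in PBS (grey), cNSF-HA (blue) and fNSF-HA (orange) cells, 3 libraries per group. Filled points passed the threshold of an adjusted p of 0.05. By the mean of the 3 responses EIF4EBP1, EIF1B and EIF1 lie farthest to the right and EIF3J, EIF2AK2 and EIF1AX farthest to the left.

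The levels of the members spanned a wide range before any change. Per kilobase of exon (GENCODE release 29), the mean over the 18 libraries was highest for EIF5A, the hypusine-carrying factor, at 5854 normalised counts per kb, followed by the scaffold EIF4G2 at 4842, EIF3I at 4141 and EIF1 at 4071. The lowest were EIF4E3, a rare cap-binding relative of EIF4E, at 5.22 per kb, EIF3C at 23.2 and EIF4A1 at 29.4. The last 2 values are uncertain as levels of these genes. EIF3C has a near-identical copy, EIF3CL, which held a mean of 2.10 normalised counts, and reads that match both copies could have been lost in the authors' counting. EIF4A1 shares 48.6% of its exonic bases with other annotated genes, among them the readthrough SENP3-EIF4A1 (mean 5.48 normalised counts). Among the kinases the order per kb was EIF2AK1 (531), EIF2AK4 (271), EIF2AK2 (144.5) and EIF2AK3 (120), and EIF4EBP1 (2353) stood above EIF4EBP2 (308).

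**Figure D2:**
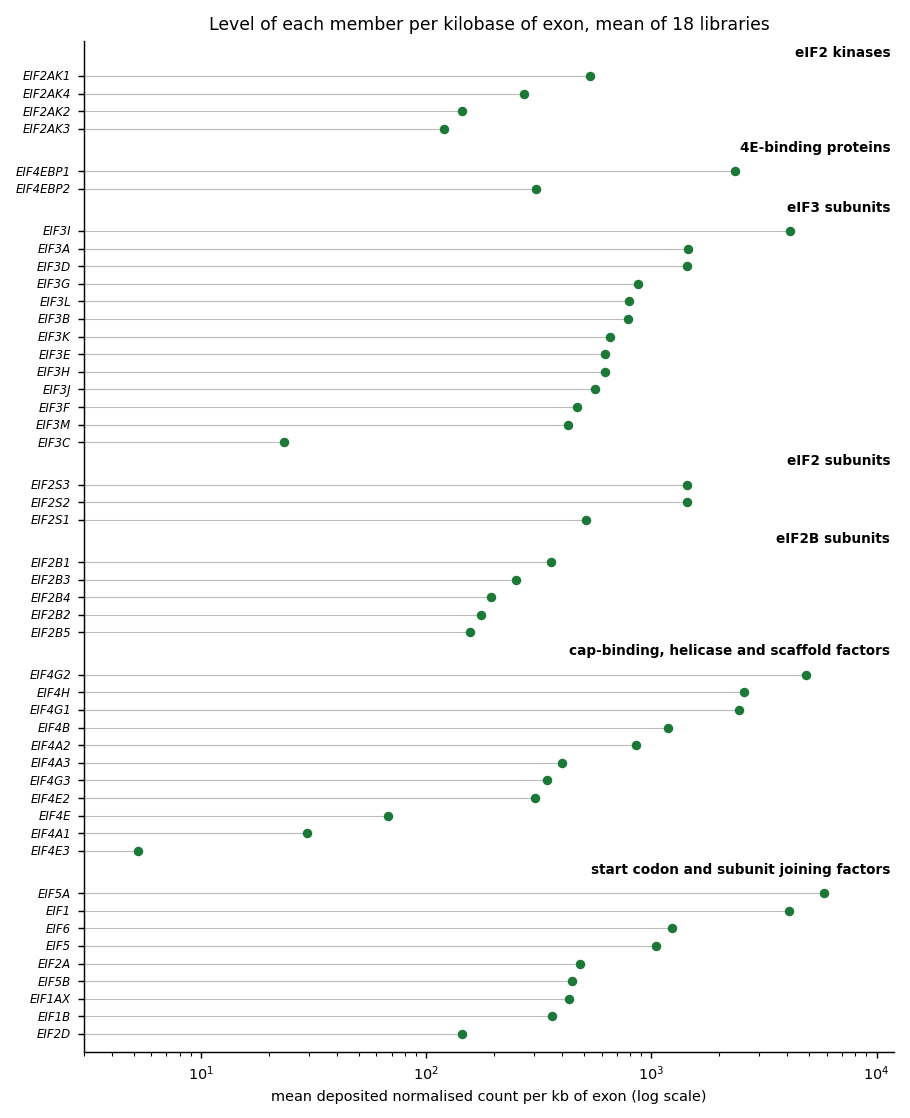
Horizontal axis (log scale): mean normalised count of each member per kilobase of exon over the 18 libraries, with the members in rows by class. EIF5A, EIF4G2, EIF3I and EIF1 are highest, and EIF4E3, EIF3C and EIF4A1 lowest.

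Of the 4 eIF2 kinases, PKR and GCN2 transcripts fell after tBHP in all 3 pre-incubations, and HRI and PERK transcripts did not fall in any. EIF2AK2 encodes PKR, which is activated by duplex RNA and lies at chr2:37099210-37157065 on the minus strand (GRCh38). EIF2AK2 in PBS cells measured 1725, 1960 and 1980 normalised counts without tBHP and 1063, 1234 and 1289 after tBHP. In cNSF-HA cells EIF2AK2 measured 1718, 1802 and 1850 normalised counts without tBHP and 1171, 1131 and 899.6 after tBHP. In fNSF-HA cells EIF2AK2 measured 1918, 1993 and 2021 normalised counts without tBHP and 1329, 1787 and 1098 after tBHP. Each library after tBHP lay below each library without it within the same pre-incubation, and replicate 2 of fNSF-HA + tBHP lay closest to the unexposed level. EIF2AK2 gave log2 responses of -0.66 ± 0.13 (PBS), -0.75 ± 0.13 (cNSF-HA) and -0.52 ± 0.13 (fNSF-HA cells; SE, adjusted p = 0.000526, 0.000164 and 0.00446). EIF2AK2 exons have a low GC content of 38.7%, and after removal of the trend of each library with GC content and length the responses were -0.24, -0.24 and -0.23, all still past the threshold.

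EIF2AK4 encodes GCN2, which senses uncharged tRNA during amino acid shortage, and it lies at chr15:39934146-40035591 on the plus strand. EIF2AK4 in PBS cells measured 3653, 3705 and 3689 normalised counts without tBHP and 2785, 2847 and 2878 after tBHP. In cNSF-HA cells EIF2AK4 measured 3792, 3650 and 3702 normalised counts without tBHP and 2691, 2814 and 2299 after tBHP. In fNSF-HA cells EIF2AK4 measured 3833, 3669 and 3727 normalised counts without tBHP and 2922, 2980 and 2679 after tBHP. No library after tBHP reached the lowest library without it. On the log2 scale EIF2AK4 responded by -0.38 ± 0.069 (PBS), -0.52 ± 0.069 (cNSF-HA) and -0.39 ± 0.069 (fNSF-HA cells; SE, adjusted p = 0.00019, 7.68e-06 and 0.000181), and they were -0.40, -0.45 and -0.40 without the GC and length trend (GC content 47.3%).

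EIF2AK1 encodes HRI, the kinase known for heme shortage in red cell precursors and for signals from stressed mitochondria. EIF2AK1 in PBS cells measured 2764, 2811 and 2676 normalised counts without tBHP and 2852, 3118 and 3081 after tBHP. In cNSF-HA cells EIF2AK1 measured 2864, 2886 and 2724 normalised counts without tBHP and 3114, 3010 and 2917 after tBHP. In fNSF-HA cells EIF2AK1 measured 2890, 2807 and 2713 normalised counts without tBHP and 3359, 3473 and 3010 after tBHP. Each library after tBHP lay above each library without it within the same pre-incubation, in PBS and cNSF-HA cells by a narrow margin. The log2 response passed the threshold in fNSF-HA cells, at 0.22 ± 0.064 (SE; adjusted p = 0.0088). It was 0.13 ± 0.064 (SE; adjusted p = 0.0926) in PBS cells and 0.093 ± 0.064 (SE; adjusted p = 0.237) in cNSF-HA cells, and both of these passed with edgeR on the recovered reads and without the GC and length trend. The call in fNSF-HA cells was lost in the fit of only the groups compared. The difference between the responses in fNSF-HA and PBS cells did not pass the test of the difference itself.

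EIF2AK3 encodes PERK, the sensor of unfolded proteins in the endoplasmic reticulum. EIF2AK3 in PBS cells measured 628, 606 and 618 normalised counts without tBHP and 625, 696 and 637 after tBHP. In cNSF-HA cells EIF2AK3 measured 572, 626 and 658 normalised counts without tBHP and 701, 716 and 511 after tBHP, with replicate 3 after tBHP well below the other two. In fNSF-HA cells EIF2AK3 measured 629, 621 and 686 normalised counts without tBHP and 735, 804 and 697 after tBHP. The log2 responses of EIF2AK3 were 0.078 ± 0.11 (PBS), 0.042 ± 0.11 (cNSF-HA) and 0.21 ± 0.11 (fNSF-HA cells; SE, adjusted p = 0.566, 0.76 and 0.133). None passed, with 95% intervals of -0.15 to 0.30 in PBS, -0.18 to 0.27 in cNSF-HA and -0.019 to 0.43 in fNSF-HA cells, and without the GC and length trend all 3 passed, at 0.19, 0.19 and 0.27.

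Of the 4E-binding proteins, the transcript of EIF4EBP1 rose and that of EIF4EBP2 fell in all 3 responses. EIF4EBP1 encodes the best known eIF4E inhibitor, and its gene is a known target of ATF4. EIF4EBP1 in PBS cells measured 1592, 1546 and 1539 normalised counts without tBHP and 3888, 3257 and 3391 after tBHP. In cNSF-HA cells EIF4EBP1 measured 1715, 1508 and 1607 normalised counts without tBHP and 3468, 3589 and 4770 after tBHP. In fNSF-HA cells EIF4EBP1 measured 1606, 1448 and 1507 normalised counts without tBHP and 3098, 2179 and 3744 after tBHP. Every library after tBHP stood above every library without it, and the highest (cNSF-HA + tBHP replicate 3) and lowest (fNSF-HA + tBHP replicate 2) of the 9 were far apart. EIF4EBP1 gave log2 responses of 1.17 ± 0.15 (PBS), 1.28 ± 0.15 (cNSF-HA) and 0.95 ± 0.15 (fNSF-HA cells; SE, adjusted p = 3.77e-06, 1.51e-06 and 4.63e-05), the largest mean rise of any member. Its exons have the highest GC content of the 47 members, 65.5%, and the responses were 0.78, 0.78 and 0.88 without the GC and length trend. In that fit the responses of EIF1B were larger.

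EIF4EBP2, a second eIF4E inhibitor, moved the other way. EIF4EBP2 in PBS cells measured 2408, 2556 and 2558 normalised counts without tBHP and 1924, 1995 and 2022 after tBHP. In cNSF-HA cells EIF4EBP2 measured 2451, 2443 and 2472 normalised counts without tBHP and 1922, 1886 and 1595 after tBHP. In fNSF-HA cells EIF4EBP2 measured 2540, 2599 and 2551 normalised counts without tBHP and 2031, 2484 and 1821 after tBHP. The groups without and after tBHP did not overlap in any pre-incubation, although replicate 2 of fNSF-HA + tBHP came close. On the log2 scale EIF4EBP2 responded by -0.34 ± 0.091 (PBS), -0.45 ± 0.091 (cNSF-HA) and -0.29 ± 0.091 (fNSF-HA cells; SE, adjusted p = 0.00454, 0.000489 and 0.0151). In fNSF-HA cells the call was lost without replicate 1 or without replicate 3 of the tBHP group.

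**Figure D3:**
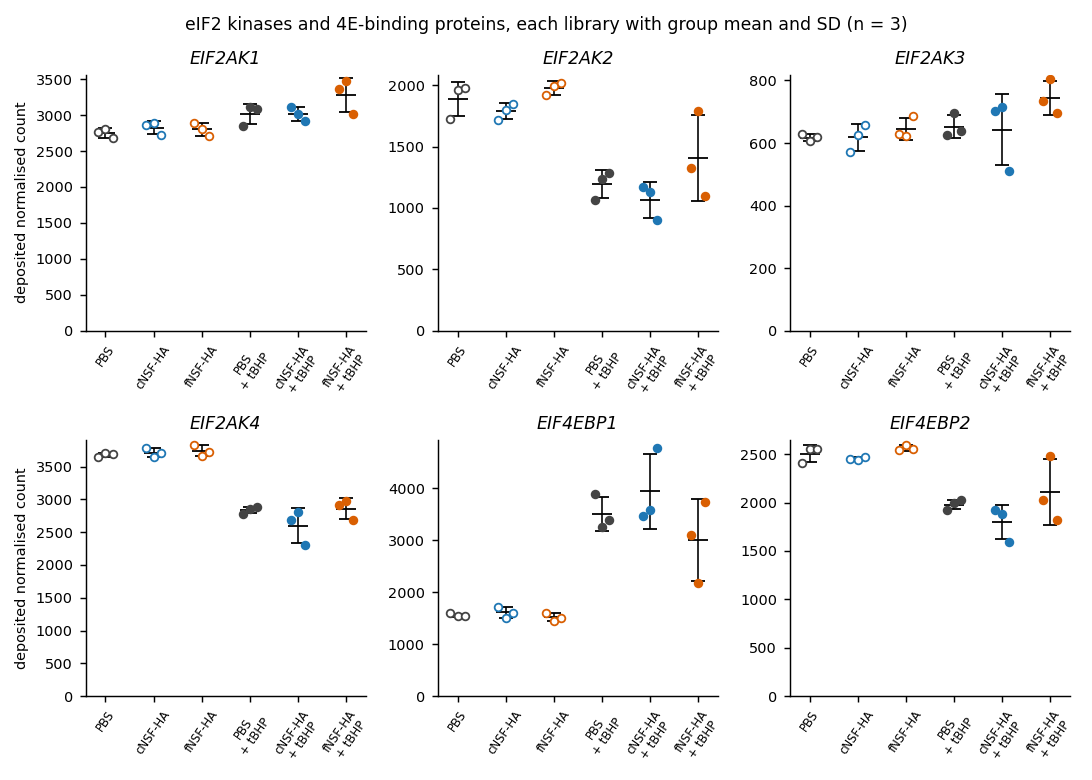
Vertical axis: normalised count of the 4 eIF2 kinases and 2 4E-binding proteins in each of the 18 libraries, by group, open points without tBHP and filled points after, with the mean and SD of each group (n = 3). EIF2AK2, EIF2AK4 and EIF4EBP2 lie lower after tBHP, EIF4EBP1 lies higher, and EIF2AK3 overlaps between the states in PBS and cNSF-HA cells.

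The eIF2 complex itself split by subunit. EIF2S2, the beta subunit, rose in all 3 responses, EIF2S1, the alpha subunit that the kinases phosphorylate, fell in all 3, and EIF2S3, the gamma subunit that binds GTP and the initiator tRNA, passed in none. EIF2S2 in PBS cells measured 2849, 2854 and 2730 normalised counts without tBHP and 3983, 4825 and 4835 after tBHP. In cNSF-HA cells EIF2S2 measured 2963, 2758 and 2764 normalised counts without tBHP and 4283, 4520 and 5425 after tBHP. In fNSF-HA cells EIF2S2 measured 2915, 2919 and 2867 normalised counts without tBHP and 5004, 5524 and 4477 after tBHP. All 9 libraries after tBHP stood above all 9 without it. The log2 responses of EIF2S2 were 0.69 ± 0.093 (PBS), 0.74 ± 0.093 (cNSF-HA) and 0.78 ± 0.093 (fNSF-HA cells; SE, adjusted p = 8.50e-06, 4.35e-06 and 2.62e-06), and 0.77, 0.79 and 0.78 without the GC and length trend. EIF2S1 gave log2 responses of -0.45 ± 0.075 (PBS), -0.28 ± 0.075 (cNSF-HA) and -0.28 ± 0.075 (fNSF-HA cells; SE, adjusted p = 7.13e-05, 0.00515 and 0.00626), with low GC exons (39.2%), and without the GC and length trend they were -0.052, 0.10 and -0.045 and none passed. The responses of EIF2S3 were -0.0032, -0.062 and 0.10 on the log2 scale, in the order PBS, cNSF-HA and fNSF-HA, and without the GC and length trend they were 0.21, 0.11 and 0.19 and all passed as rises, so the split among the subunits differed in that fit.

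Among the 5 subunits of eIF2B, the exchange factor that phosphorylated eIF2 blocks, EIF2B1 alone passed in all 3 responses, but it no longer did so in 12 of the 18 fits that left out 1 library, nor with edgeR or quantile scaling. The log2 responses of EIF2B1, the alpha subunit, were -0.27 ± 0.065 (PBS), -0.22 ± 0.065 (cNSF-HA) and -0.17 ± 0.065 (fNSF-HA cells; SE, adjusted p = 0.00231, 0.00919 and 0.0453). EIF2B3 fell in PBS (-0.27 ± 0.076) and fNSF-HA cells (-0.22 ± 0.076), with a value of -0.05 ± 0.076 in cNSF-HA cells. EIF2B4 rose in PBS (0.19 ± 0.079) and cNSF-HA cells (0.23 ± 0.079), with a value of 0.14 ± 0.079 in fNSF-HA cells. EIF2B2 and EIF2B5, the catalytic subunit, passed in none. Without the GC and length trend EIF2B2 passed as a rise in cNSF-HA cells (0.23), and EIF2B5 as a fall in PBS (-0.20) and fNSF-HA cells (-0.18). The largest size of any eIF2B response was 0.27 on the log2 scale.

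The largest rises among genes around eIF2 phosphorylation exceeded those of eIF2 and its kinases. On a list of 19 such genes the risers numbered 8 (PBS), 9 (cNSF-HA) and 8 (fNSF-HA), and the fallers 6, 6 and 4. Over all genes 24.2%, 24.0% and 19.2% rose and 26.9%, 26.8% and 22.7% fell, so the fallers were near that share. ATF4, the transcription factor translated when eIF2 is phosphorylated, measured 5605, 5462 and 5444 normalised counts in PBS and 15031, 13760 and 14762 in PBS + tBHP libraries, with log2 responses of 1.40 ± 0.072 (PBS), 1.43 ± 0.072 (cNSF-HA) and 1.38 ± 0.072 (fNSF-HA cells; SE, adjusted p = 5.76e-11, 4.37e-11 and 7.24e-11). DDIT3, which encodes CHOP, measured 201, 174 and 155 normalised counts in PBS and 1284, 1234 and 1523 in PBS + tBHP libraries, and its log2 responses were 2.92, 3.04 and 3.11. PPP1R15A, which encodes GADD34, the stress-induced subunit of the eIF2 phosphatase, measured 2275, 2241 and 2204 normalised counts in PBS and 6846, 5931 and 6319 in PBS + tBHP libraries. Its log2 responses were 1.50, 1.48 and 1.37, while PPP1R15B, the constitutive counterpart, passed in none (0.081, -0.074 and 0.10). The largest rise on the list was that of the transcription factor ATF3, at 4.01, 3.91 and 4.30, and the largest fall was that of PPP1CC, a catalytic subunit of protein phosphatase 1, at -1.04, -0.87 and -0.78. IMPACT, an inhibitor of GCN2, and PRKRA, an activator of PKR, fell in all 3 responses (-0.57, -0.48 and -0.32 and -0.43, -0.52 and -0.41). PPP1R15B, IMPACT and PRKRA were chosen after their values were seen. In each of these triplets the order is PBS, cNSF-HA and fNSF-HA cells.

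Of 31 listed genes that feed into the 4E-binding proteins through mTORC1, 29 were tested, with 10 (PBS), 10 (cNSF-HA) and 11 (fNSF-HA) risers (24.2%, 24.0% and 19.2% of all genes rose) and 4, 3 and 2 fallers (26.9%, 26.8% and 22.7% of all genes fell). DDIT4 and SESN2, which encode inhibitors of mTORC1, rose, and the other inhibitors on the list are not given here. DDIT4, which encodes REDD1, measured 296, 336 and 344 normalised counts in PBS and 3536, 2848 and 3049 in PBS + tBHP libraries, with log2 responses of 3.27 ± 0.12 (PBS), 3.15 ± 0.12 (cNSF-HA) and 3.26 ± 0.12 (fNSF-HA cells; SE, adjusted p = 9.41e-13, 1.66e-12 and 9.15e-13), the largest rise on the list. SESN2, a leucine sensor and mTORC1 inhibitor, measured 433, 377 and 415 normalised counts in PBS and 3952, 3024 and 3297 in PBS + tBHP libraries, with log2 responses of 3.06, 3.00 and 2.96. Of the transcripts of mTORC1 itself, MTOR (-0.059, -0.19 and -0.073) and RPTOR (0.29, 0.17 and -0.069) did not pass in any response. MLST8, also on the list, is not given here. The eIF4A inhibitor PDCD4 rose (1.07, 1.15 and 1.31), as did MKNK2, which encodes a kinase of eIF4E (1.68, 1.53 and 1.33). By the mean of the 3 responses the largest fall past the threshold in all 3 was that of RRAGC, a Rag GTPase (-0.62, -0.51 and -0.37), while in fNSF-HA cells RPS6KB1, which encodes an S6 kinase, fell further (-0.49, -0.37 and -0.46). RPS6KB1, MTOR, RPTOR, PDCD4 and MKNK2 were chosen after their values were seen.

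Of the 11 cap-binding, helicase and scaffold factors, 2 rose and 1 fell in all 3 responses (14.6% and 17.9% of all genes did). EIF4E, the cap-binding protein that the 4E-binding proteins hold, fell. EIF4E in PBS cells measured 1072, 1160 and 1225 normalised counts without tBHP and 559.5, 893 and 852 after tBHP. In cNSF-HA cells EIF4E measured 1052, 1069 and 1151 normalised counts without tBHP and 658, 693 and 676 after tBHP. In fNSF-HA cells EIF4E measured 1127, 1249 and 1156 normalised counts without tBHP and 844, 1083 and 647 after tBHP. The libraries after tBHP lay below those without it in each pre-incubation, with a wide spread in PBS + tBHP and fNSF-HA + tBHP and a narrow spread in cNSF-HA + tBHP. On the log2 scale EIF4E responded by -0.61 ± 0.16 (PBS), -0.69 ± 0.16 (cNSF-HA) and -0.49 ± 0.16 (fNSF-HA cells; SE, adjusted p = 0.00375, 0.00157 and 0.0196). EIF4E exons have a GC content of 39.0%, and without the GC and length trend the responses were -0.19, -0.16 and -0.20 and none passed. In fNSF-HA cells the call was also lost without fNSF-HA replicate 2 or without fNSF-HA + tBHP replicate 3.

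EIF4B, which stimulates the helicase eIF4A, rose. EIF4B in PBS cells measured 6243, 6215 and 6186 normalised counts without tBHP and 8022, 8531 and 8162 after tBHP. In cNSF-HA cells EIF4B measured 6370, 5998 and 6117 normalised counts without tBHP and 8039, 8129 and 7263 after tBHP. In fNSF-HA cells EIF4B measured 6540, 6508 and 6448 normalised counts without tBHP and 8593, 9261 and 7995 after tBHP. No library after tBHP fell to the level of any library without it. The log2 responses of EIF4B were 0.41 ± 0.061 (PBS), 0.34 ± 0.061 (cNSF-HA) and 0.40 ± 0.061 (fNSF-HA cells; SE, adjusted p = 2.96e-05, 0.000186 and 4.11e-05), and 0.43, 0.40 and 0.40 without the GC and length trend. EIF4E2, a cap-binding protein known mainly as a repressor, rose by less (0.17, 0.20 and 0.19), and 24.2% of its exonic bases overlap other genes. EIF4E2 no longer passed in all 3 responses in 14 of the 18 fits that left out 1 library, nor with the replicate block or quantile scaling.

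The near-copies EIF4A1 and EIF4A2 encode the same kind of RNA helicase and could be confused in counting. EIF4A2 in PBS cells measured 5417, 5445 and 5738 normalised counts without tBHP and 4030, 4959 and 4801 after tBHP. In cNSF-HA cells EIF4A2 measured 5006, 5387 and 5231 normalised counts without tBHP and 4773, 4914 and 4870 after tBHP. In fNSF-HA cells EIF4A2 measured 5417, 5735 and 5568 normalised counts without tBHP and 5603, 6543 and 4802 after tBHP. EIF4A2 passed as a fall in PBS cells, at -0.27 ± 0.091 (SE; adjusted p = 0.0184), a call lost without PBS replicate 3 or without PBS + tBHP replicate 1, and the other two responses were -0.10 ± 0.091 and 0.0085 ± 0.091. Its direction was not fixed: without the GC and length trend (GC content 38.7%) the 3 responses were 0.15, 0.32 and 0.26, and all passed as rises. EIF4A1 in PBS cells measured 199, 169.8 and 170.4 normalised counts without tBHP and 134, 118 and 202 after tBHP. In cNSF-HA cells EIF4A1 measured 157, 225 and 185 normalised counts without tBHP and 146, 119.7 and 128 after tBHP. In fNSF-HA cells EIF4A1 measured 126, 168 and 141 normalised counts without tBHP and 149.9, 124 and 152 after tBHP. These groups overlapped in PBS and fNSF-HA cells, and EIF4A1 passed in cNSF-HA cells, at -0.51 ± 0.18 (SE; adjusted p = 0.0224), a call lost without replicate 2 of either group or without cNSF-HA + tBHP replicate 3. No difference between the responses of EIF4A1 or of EIF4A2 passed. Of the scaffolds, EIF4G1 and EIF4G3 passed in none, although EIF4G1 fell in all 3 without the GC and length trend (-0.20, -0.16 and -0.16), while EIF4G2, which lacks the eIF4E-binding part, fell in PBS (-0.21 ± 0.085) and cNSF-HA cells (-0.27 ± 0.085) and measured -0.16 ± 0.085 in fNSF-HA cells.

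After EIF4EBP1, the largest mean rises of any member were in EIF1B and EIF1, near-copies whose products keep the scanning ribosome open until it meets a start codon. EIF1 in PBS cells measured 10870, 10784 and 10354 normalised counts without tBHP and 17546, 18529 and 19321 after tBHP. In cNSF-HA cells EIF1 measured 11036, 10611 and 10412 normalised counts without tBHP and 17760, 18656 and 21817 after tBHP. In fNSF-HA cells EIF1 measured 11165, 10823 and 10589 normalised counts without tBHP and 18428, 17564 and 19246 after tBHP. All 9 libraries after tBHP stood well above all 9 without it. EIF1 gave log2 responses of 0.79 ± 0.069 (PBS), 0.86 ± 0.069 (cNSF-HA) and 0.76 ± 0.069 (fNSF-HA cells; SE, adjusted p = 5.25e-08, 2.23e-08 and 9.65e-08), the smallest adjusted p of any member in each response. EIF1B in PBS cells measured 474, 467 and 458 normalised counts without tBHP and 758, 914 and 809 after tBHP. In cNSF-HA cells EIF1B measured 504, 496 and 487 normalised counts without tBHP and 855, 840.1 and 1039 after tBHP. In fNSF-HA cells EIF1B measured 476, 516 and 456 normalised counts without tBHP and 972, 1064 and 880.4 after tBHP. EIF1B lay far lower than EIF1 in every library, and its 2 states did not overlap either. On the log2 scale EIF1B responded by 0.82 ± 0.10 (PBS), 0.87 ± 0.10 (cNSF-HA) and 1.01 ± 0.10 (fNSF-HA cells; SE, adjusted p = 1.56e-06, 9.10e-07 and 1.70e-07). Without the GC and length trend EIF1 gave 0.81, 0.84 and 0.72 and EIF1B 1.00, 0.92 and 1.03.

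The stretches upstream of both genes are shown because the copies rose together from separate loci. Each is the 250 bases before the annotated start (RefSeq, GRCh38.p14), and capitals mark CACGTG, the E-box bound by factors such as MYC and USF. That of EIF1 is chr17:41688635-41688884, plus strand, and that of EIF1B is chr3:40309457-40309706, plus strand.
EIF1: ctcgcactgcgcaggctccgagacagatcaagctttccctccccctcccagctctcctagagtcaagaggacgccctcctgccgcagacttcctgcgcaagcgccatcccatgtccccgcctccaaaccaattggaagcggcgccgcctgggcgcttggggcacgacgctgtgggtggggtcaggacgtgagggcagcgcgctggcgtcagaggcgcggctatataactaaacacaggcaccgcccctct
EIF1B: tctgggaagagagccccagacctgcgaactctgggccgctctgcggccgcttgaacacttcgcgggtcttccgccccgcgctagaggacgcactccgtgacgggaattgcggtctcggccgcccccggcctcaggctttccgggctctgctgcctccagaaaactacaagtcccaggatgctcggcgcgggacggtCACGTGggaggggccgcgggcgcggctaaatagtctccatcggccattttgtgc
The stretch of EIF1B holds 1 CACGTG and that of EIF1 none. RefSeq windows from 250 bases before to 50 after the start were matched for 39 of the 47 members (54 windows). EIF4EBP1, EIF2AK1, EIF2S2, EIF3A, EIF3E, EIF3G, EIF3H and EIF3L had no window and were not searched. The sequence CACGTG, read on both strands, was in the windows of 10 of these 39, among them 4 of 8 members that rose in all 3 responses (EIF3F, EIF3K, EIF4B and EIF1B) and 2 of 9 that fell (EIF2AK2 and EIF4E), beside 8.77% of all genes with a window. TGATGNAA, the composite element bound by ATF4 with C/EBP proteins, was in the window of EIF4E3 alone among the 39 searched (4.46% of all genes).

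The E-boxes of the other members called in all 3 responses are shown, each as 30 bases with CACGTG in capitals, since risers and fallers carry the same letters. They lie at chr11:7987257-7987286, plus strand (EIF3F), chr19:38619073-38619102, plus strand (EIF3K), chr12:53006422-53006451, plus strand (EIF4B), chr2:37157144-37157173, minus strand (EIF2AK2), and chr4:98929341-98929370, minus strand and chr4:98929188-98929217, minus strand (EIF4E).
EIF3F: aaagctctagctCACGTGgtgtatattcag
EIF3K: cgaggaagaagtCACGTGgcagccggaaag
EIF4B: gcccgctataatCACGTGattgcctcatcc
EIF2AK2: gtgcaggggcagCACGTGggtgccaagccc
EIF4E, far: ctacccatcggcCACGTGaccagtcctttt
EIF4E, near: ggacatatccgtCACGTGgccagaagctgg
Counted from the start to the first base of the E-box, the positions were -68 (EIF3F), -103 (EIF3K), -22 (EIF4B), -181 (EIF2AK2), and -225 and -72 (EIF4E).

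Many mRNAs of the translation machinery begin with a run of pyrimidines, the terminal oligopyrimidine tract through which mTORC1 controls their translation. The letters TCTTT, read on the sense strand within 15 bases of the annotated start, were in the windows of 7 of the 39 members and in 4.92% of all genes. They were in 3 of the 8 matched members that rose in all 3 responses and in 0 of the 9 that fell. The 3 risers are shown with 15 bases on each side of the start and TCTTT in capitals, at chr22:36529152-36529181, minus strand (EIF3D), chr11:7987322-7987351, plus strand (EIF3F) and chr12:53006441-53006470, plus strand (EIF4B).
EIF3D: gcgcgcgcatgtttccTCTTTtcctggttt
EIF3F: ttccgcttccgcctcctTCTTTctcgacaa
EIF4B: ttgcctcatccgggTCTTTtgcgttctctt
The other 4 were EIF2S3, EIF4A2, EIF4G3 and EIF2A, which did not pass in all 3 responses. A match of letters is a description and no evidence that a factor binds or that a transcript starts there.

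EIF1AX, whose product works beside eIF1 on the scanning ribosome, fell. EIF1AX in PBS cells measured 2137, 2455 and 2455 normalised counts without tBHP and 1220, 1627 and 1551 after tBHP. In cNSF-HA cells EIF1AX measured 1933, 2149 and 2262 normalised counts without tBHP and 1264, 1261 and 1531 after tBHP. In fNSF-HA cells EIF1AX measured 2428, 2491 and 2419 normalised counts without tBHP and 1530, 2160 and 1355 after tBHP. The states did not overlap within a pre-incubation, and replicate 2 of fNSF-HA + tBHP again lay nearest to the unexposed libraries. The log2 responses of EIF1AX were -0.69 ± 0.14 (PBS), -0.65 ± 0.14 (cNSF-HA) and -0.57 ± 0.14 (fNSF-HA cells; SE, adjusted p = 0.000498, 0.000856 and 0.00303). Its exons have the lowest GC content of the 47, 35.1%, and without the GC and length trend the responses were -0.12, -0.14 and -0.24, of which the last passed. Among the other 6 start codon and joining factors, EIF5A rose in PBS (0.21 ± 0.07) and cNSF-HA cells (0.22 ± 0.07), with a value of 0.074 ± 0.07 in fNSF-HA cells that did not pass. EIF5B, the GTPase of subunit joining, and EIF2A, an alternative initiator tRNA carrier, fell in PBS cells (-0.31 ± 0.091 and -0.29 ± 0.085). In cNSF-HA and fNSF-HA cells EIF5B measured -0.14 ± 0.091 and -0.15 ± 0.091 and EIF2A -0.11 ± 0.085 and -0.0054 ± 0.085, which did not pass, and no difference between the responses passed either. EIF5, EIF6 and EIF2D passed in none, although without the GC and length trend EIF5 rose (0.16, 0.22 and 0.22) and EIF6 fell (-0.13, -0.13 and -0.15) in all 3.

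**Figure D4:**
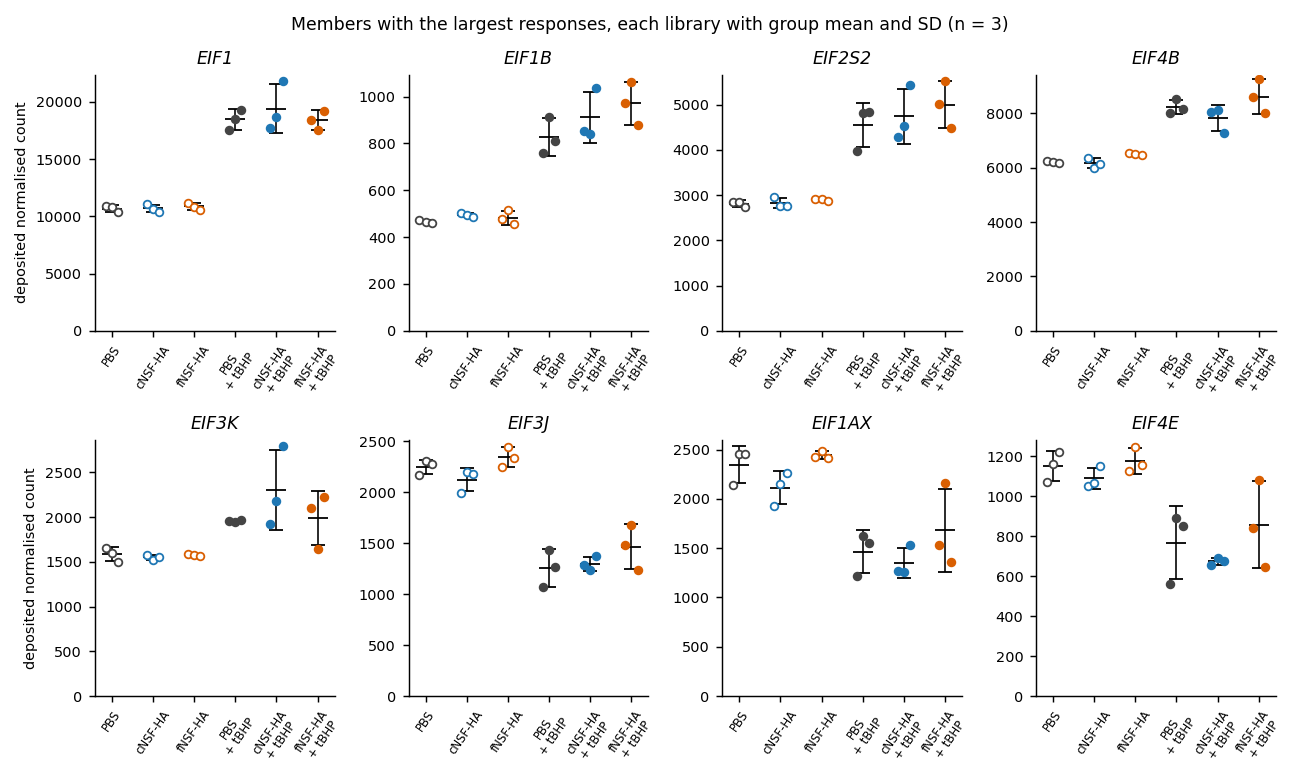
Vertical axis: normalised count in each of the 18 libraries for the 8 members with the largest mean responses among those past the threshold in all 3, kinases and 4E-binding proteins aside, open points without tBHP and filled points after, with the mean and SD of each group (n = 3). EIF1, EIF1B, EIF2S2, EIF4B and EIF3K lie higher after tBHP, and EIF3J, EIF1AX and EIF4E lower.

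The 13 subunits of eIF3, which form a single complex, did not all respond alike. The risers numbered 7 (PBS), 8 (cNSF-HA) and 6 (fNSF-HA), beside 24.2%, 24.0% and 19.2% of all genes. The fallers numbered 3, 3 and 2, a share at or below that of all genes (26.9%, 26.8% and 22.7%). The 5 that rose in all 3 responses (14.6% of all genes did) were EIF3D, EIF3F, EIF3I, EIF3K and EIF3L. The 2 that fell in all 3 (17.9% of all genes did) were EIF3J and EIF3M. The median log2 response of the 13 was 0.19, 0.19 and 0.20, and single subunits ranged from -0.85 (EIF3J in PBS cells) to 0.55 (EIF3K in cNSF-HA cells). EIF3A, the largest subunit and the core of the complex, and EIF3B, which binds the small ribosomal subunit, passed in none, with responses of 0.043, 0.055 and 0.12 for EIF3A and -0.022, 0.034 and -0.14 for EIF3B. Without the GC and length trend EIF3A rose (0.22, 0.31 and 0.24) and EIF3B fell (-0.24, -0.17 and -0.21) in all 3.

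EIF3J encodes the loosely bound subunit that sits near the decoding site. EIF3J in PBS cells measured 2170, 2303 and 2278 normalised counts without tBHP and 1067, 1436 and 1268 after tBHP. In cNSF-HA cells EIF3J measured 1994, 2195 and 2175 normalised counts without tBHP and 1286, 1237 and 1373 after tBHP. In fNSF-HA cells EIF3J measured 2250, 2445 and 2338 normalised counts without tBHP and 1480, 1683 and 1238 after tBHP. The states were far apart in each pre-incubation. EIF3J gave log2 responses of -0.85 ± 0.10 (PBS), -0.71 ± 0.10 (cNSF-HA) and -0.69 ± 0.10 (fNSF-HA cells; SE, adjusted p = 3.25e-06, 2.67e-05 and 4.36e-05), the largest mean fall of any member, and -0.43, -0.38 and -0.48 without the GC and length trend (GC content 38.8%), all past the threshold.

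EIF3K, a small non-core subunit, rose. EIF3K in PBS cells measured 1651, 1599 and 1499 normalised counts without tBHP and 1961, 1943 and 1967 after tBHP. In cNSF-HA cells EIF3K measured 1574, 1523 and 1549 normalised counts without tBHP and 1922, 2184 and 2799 after tBHP. In fNSF-HA cells EIF3K measured 1590, 1579 and 1567 normalised counts without tBHP and 2107, 1642 and 2220 after tBHP. Replicate 2 of fNSF-HA + tBHP lay lowest of the 9 libraries after tBHP, still above the unexposed fNSF-HA libraries. On the log2 scale EIF3K responded by 0.31 ± 0.11 (PBS), 0.55 ± 0.11 (cNSF-HA) and 0.32 ± 0.11 (fNSF-HA cells; SE, adjusted p = 0.03, 0.000551 and 0.0284). These calls were not firm: in PBS cells the call was lost without any of 5 of the 6 libraries compared, and in fNSF-HA cells likewise. EIF3D (0.19, 0.26 and 0.22), EIF3F (0.27, 0.46 and 0.30), EIF3I (0.25, 0.32 and 0.28) and EIF3L (0.19, 0.19 and 0.26) gave smaller but close values in the 3 responses, and 51.8% of the exonic bases of EIF3L overlap other genes. The rise in all 3 responses was lost in 5 of the 18 fits that left out 1 library for EIF3L and in 2 for EIF3D, and in none of them for EIF3F and EIF3I.

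EIF3E, EIF3H and EIF3M, which carry the PCI or MPN domains that build much of the complex, are given by library for the comparison of the HA groups after tBHP. They were chosen after their values were seen. EIF3M in PBS cells measured 3560, 3567 and 3489 normalised counts without tBHP and 2250, 2547 and 2518 after tBHP. In cNSF-HA cells EIF3M measured 3392, 3453 and 3218 normalised counts without tBHP and 2566, 2856 and 3211 after tBHP. In fNSF-HA cells EIF3M measured 3583, 3670 and 3669 normalised counts without tBHP and 3045, 3341 and 2935 after tBHP. All 3 groups fell, the PBS group by the most, and its 3 libraries after tBHP lay below the 6 of the HA groups. The fall of EIF3M in all 3 responses was lost in 7 of the 18 fits that left out 1 library and in 3 of 12 other settings, among them edgeR. EIF3E in PBS cells measured 4235, 4383 and 4163 normalised counts without tBHP and 2490, 3094 and 2860 after tBHP. In cNSF-HA cells EIF3E measured 4082, 4107 and 3982 normalised counts without tBHP and 2978, 3107 and 3460 after tBHP. In fNSF-HA cells EIF3E measured 4233, 4359 and 4353 normalised counts without tBHP and 3716, 4219 and 3228 after tBHP. After tBHP the cNSF-HA libraries of EIF3E overlapped both the PBS and the fNSF-HA libraries, and those of PBS and fNSF-HA did not overlap. EIF3H in PBS cells measured 3849, 3875 and 3804 normalised counts without tBHP and 3711, 3809 and 3781 after tBHP. In cNSF-HA cells EIF3H measured 3929, 3844 and 3701 normalised counts without tBHP and 4077, 4186 and 4604 after tBHP. In fNSF-HA cells EIF3H measured 3782, 3871 and 3778 normalised counts without tBHP and 4592, 4295 and 4224 after tBHP. The log2 responses were -0.54, -0.23 and -0.23 for EIF3M, -0.60, -0.35 and -0.22 for EIF3E and -0.029, 0.16 and 0.20 for EIF3H. The difference between fNSF-HA and PBS after tBHP was 0.35 ± 0.077 (adjusted p = 0.0633) for EIF3M, 0.40 ± 0.09 (adjusted p = 0.0662) for EIF3E and 0.21 ± 0.058 (adjusted p = 0.0948) for EIF3H, so none passed. All 3 differences were smaller without the GC and length trend, as given below. For EIF3H the 3 libraries after tBHP overlapped those without it in PBS cells and lay above them in both HA groups. The largest difference of any member between fNSF-HA and PBS after tBHP ran the other way: EIF3C measured 226, 210.1 and 194 normalised counts in PBS + tBHP, 194, 211 and 175 in cNSF-HA + tBHP and 162, 137 and 167 in fNSF-HA + tBHP libraries. The fNSF-HA libraries of EIF3C lay below those of both other groups, by -0.43 ± 0.14 against PBS (adjusted p = 0.127), and by -0.45 without the GC and length trend.

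Between pre-incubations no member passed the threshold under the same state. Without tBHP 0 of 47 passed for cNSF-HA against PBS (0% of all genes), for fNSF-HA against PBS (0%) and for cNSF-HA against fNSF-HA (0%), and 0, 0 and 1 had an unadjusted p under 0.05 (0.921%, 0.796% and 1.51% of all genes). After tBHP 0 of 47 passed for cNSF-HA against PBS (0%), for fNSF-HA against PBS (0.139% of all genes) and for cNSF-HA against fNSF-HA (0%), and 3, 10 and 17 had an unadjusted p under 0.05 (8.64%, 22.7% and 32.2% of all genes, so that the members were near the share of all genes). Libraries of the compared groups did not overlap for 10, 10 and 16 members without tBHP (15.2%, 14.0% and 25.0% of all genes) and for 5, 6 and 5 members after it (9.57%, 12.0% and 13.4%). The differences between tBHP responses passed for 0 members as well, whether cNSF-HA was set against PBS (0%), fNSF-HA against PBS (0%) or cNSF-HA against fNSF-HA (0%), with 2, 5 and 0 at an unadjusted p under 0.05 (4.06%, 6.88% and 3.89% of all genes). These comparisons share libraries with each other. The study used DESeq2 and reported many genes that differed between cNSF-HA and fNSF-HA after tBHP (q under 0.05). The main test here called 0% of all genes in that comparison. DESeq2 on the recovered reads called 4 members for fNSF-HA against PBS after tBHP (3.30% of all genes), EIF3E, EIF3H, EIF3M and EIF2A, each higher in fNSF-HA, and edgeR called 0.

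A missed threshold does not show that the preparations act alike. The members differed between cNSF-HA and fNSF-HA by -0.21 (EIF1AX) to 0.38 (EIF4A1) without tBHP and by -0.38 (EIF2AK2) to 0.41 (EIF4EBP1) after tBHP, on the log2 scale. After tBHP the 95% interval of that difference (cNSF-HA minus fNSF-HA) was -0.66 to -0.094 for EIF2AK2, -0.45 to -0.0012 for EIF2AK3, -0.28 to 0.0037 for EIF2AK4 and -0.25 to 0.014 for EIF2AK1. It was 0.10 to 0.72 for EIF4EBP1 and -0.41 to -0.032 for EIF4EBP2. The intervals rest on the spread of all 18 libraries, and the SD within groups was larger after tBHP. It was 0.25 after and 0.075 without tBHP for EIF2AK2, and 0.28 and 0.071 for EIF4EBP1. The intervals may therefore be too narrow for the state after tBHP. The differences were also not stable: without the GC and length trend that of EIF4EBP1 turned from 0.41 to -0.15, that of EIF2AK2 was -0.062 in place of -0.38, and that of EIF4EBP2 was -0.033 in place of -0.22. Those of EIF2AK3, EIF2AK4 and EIF2AK1 were -0.093, -0.045 and -0.035 in place of -0.23, -0.14 and -0.12. In a fit of the 9 libraries without tBHP alone, where the spread is smaller, 8 members passed for cNSF-HA against fNSF-HA (6.88% of all genes), and with only the 6 libraries compared 9 passed (7.16%). Of the 8, EIF2AK2 (-0.14), EIF3J (-0.14), EIF3M (-0.12), EIF2S1 (-0.13), EIF4G2 (-0.084), EIF1AX (-0.21) and EIF5 (-0.078) were lower in cNSF-HA and EIF4A1 (0.38) higher. Without the GC and length trend the 7 lower values were between -0.083 (EIF1AX) and -0.0041 (EIF4G2), and that of EIF4A1 was 0.38. Across the 47 members this difference without tBHP had a Spearman correlation of 0.62 with exon GC content (0.56 over all genes). Without fNSF-HA + tBHP replicate 3, 15 members passed for fNSF-HA against PBS after tBHP (29.4% of all genes) and 20 for cNSF-HA against fNSF-HA (40.8% of all genes), so that 1 library decided these counts. Without PBS + tBHP replicate 2, 3 members passed for fNSF-HA against PBS, EIF3E, EIF3M and EIF2A (1.25% of all genes). With a replicate block 2 passed, EIF3E and EIF3M (0.446% of all genes).

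The differences of fNSF-HA from PBS and from cNSF-HA after tBHP ran with the GC content of the exons. Across the 47 members, which share their libraries, the Spearman correlation of the difference with GC content was -0.82 for fNSF-HA against PBS, 0.73 for cNSF-HA against fNSF-HA and 0.13 for cNSF-HA against PBS. Over 12516 genes with a GC value it was -0.75, 0.78 and 0.24. The tBHP responses of the members followed GC content too, at 0.63 in PBS, 0.59 in cNSF-HA and 0.43 in fNSF-HA cells (0.51, 0.51 and 0.23 over all genes). With the trend of each library with GC content and length removed, the differences of fNSF-HA against PBS after tBHP were 0.14 for EIF3M, 0.14 for EIF3E and 0.03 for EIF3H, and 0 members passed. The same removal gave 17 members that rose in all 3 responses (21.6% of all genes), 9 of them among the 11 above, and 10 that fell (22.2% of all genes), 5 of them among the 9 above. EIF3D and EIF3K left the risers, and EIF2AK1, EIF2AK3, EIF3A, EIF3H, EIF2S3, EIF4A2, EIF4A3 and EIF5 joined them. EIF3M, EIF2S1, EIF4E and EIF1AX left the fallers, and EIF3B, EIF2B3, EIF4G1, EIF4H and EIF6 joined them. GC content and length were removed together, and the part of either in these results was not tested.

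**Figure D5:**
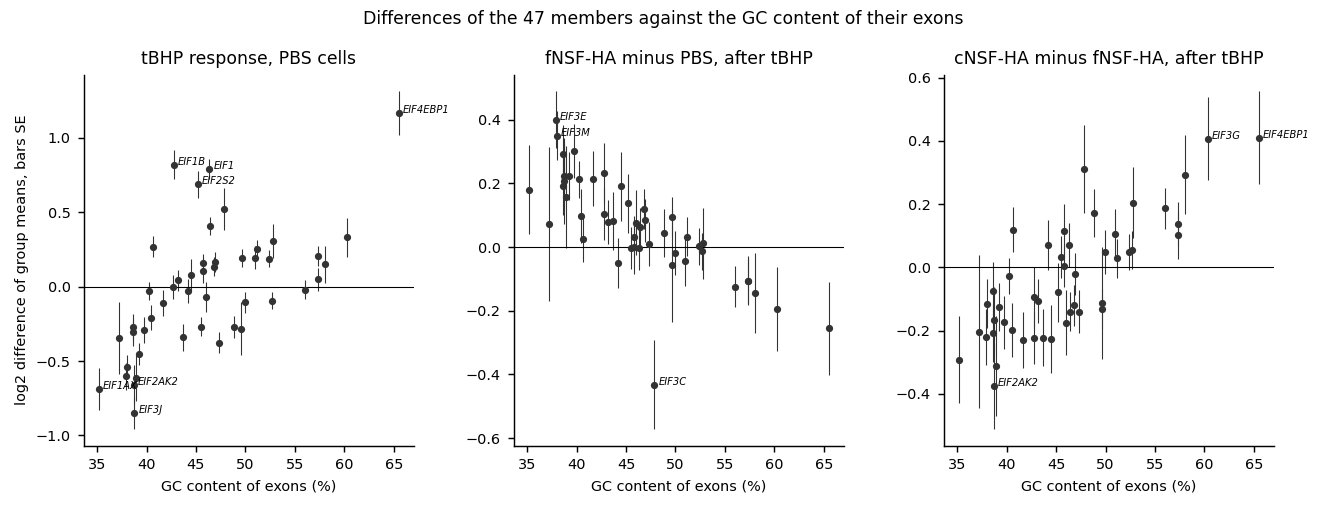
Horizontal axes: GC content of the exons in the longest annotated transcript of each of the 47 members (%). Vertical axes: log2 difference of group means with SE, for the tBHP response of PBS cells, fNSF-HA minus PBS after tBHP, and cNSF-HA minus fNSF-HA after tBHP. The Spearman correlations are 0.63, -0.82 and 0.73.

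The other lists were small, and their counts are to be read beside the 24.2%, 24.0% and 19.2% of all genes that rose and the 26.9%, 26.8% and 22.7% that fell in the 3 responses. Of 7 tested elongation factors 3 (PBS), 5 (cNSF-HA) and 3 (fNSF-HA) rose, and 1, 1 and 2 fell. EEF1A1, the carrier of aminoacyl-tRNA, gave the largest rise among those past the threshold in all 3 responses (0.40, 0.45 and 0.41), and EEF1E1, a part of the multisynthetase complex, fell by the most (-1.84, -1.67 and -1.28). Of 7 termination and recycling genes, 2, 1 and 1 rose and 4, 4 and 3 fell. ABCE1, the ATPase that splits ribosomes after termination, fell (-1.50, -1.23 and -1.07), and PELO, its partner in the rescue of stalled ribosomes, rose (0.50, 0.60 and 0.54). Of 14 further initiation genes tested, 3, 3 and 2 rose and 8, 8 and 7 fell, with EIF5A2, a relative of EIF5A, falling by the most (-1.16, -1.15 and -0.92) and EIF4ENIF1, which carries eIF4E into the nucleus, the only gene to rise in all 3 (0.45, 0.28 and 0.32). Of 5 poly(A)-binding genes tested, 2, 1 and 1 rose and 1 fell each time. PAIP2, an inhibitor of the poly(A)-binding protein, rose (0.36, 0.53 and 0.52) and PABPN1, its nuclear counterpart, fell (-0.29, -0.32 and -0.46). In all of these triplets the order is PBS, cNSF-HA and fNSF-HA cells.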

How the data were processed

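RNA of 18 IMR90 libraries was prepared with a kit that does not mark strand and read as single ends of 100 nt. Per the study's methods and the submitters' processing notes, the authors trimmed reads with Trimmomatic 0.32, aligned them with STAR 2.5.2b to GRCh38.p7, counted them per gene with featureCounts (Subread 1.5.0-p3) and divided the counts by DESeq2 size factors; the annotation is not given in the sources used here. The deposited values are thus a normalised signal, called normalised counts here, and 100% were whole multiples of 1 read, so reads were recovered for the count tests. The deposited table also holds p-value and q-value columns of the authors' own DESeq2 test and a ranking score made from them; they name no comparison and were not used.

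Values were tested as log2(value + 1) with limma 3.58.1 (trended, R 4.3.3) over all 18 libraries, for the 13686 genes with a mean of at least 10, with Benjamini-Hochberg adjustment and a threshold of 0.05. The same table was tested with edgeR 4.0.16 and DESeq2 1.42.0 on recovered reads. Other alternatives were pseudocounts, minimum levels, quantile scaling, a replicate block, smaller sets of libraries and leaving out each library. A further alternative removed a spline trend with the GC content and length of the longest annotated transcript of each gene. The plain limma, edgeR and DESeq2 fits were first tried on simulated counts, for the tBHP response in PBS cells. Those counts had a common dispersion and no GC trend. The other alternatives were not tried on simulated data. Gene models were GENCODE release 29 and promoters RefSeq.

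Members and lists were chosen with earlier results of these data known. Values of every library were printed for the kinases, the 4E-binding proteins, the 8 other members with the largest mean response among those past the threshold in all 3, and the near-copies. ATF4, DDIT3, PPP1R15A, DDIT4, SESN2 and, in each list, the largest mean rise and fall among genes past the threshold in all 3 responses were named; other names are marked as chosen after their values were seen.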

Additional observations from a re-analysis of the deposited data

Results flagged for a closer look

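EIF3H was singled out by the signs of its libraries: the 3 PBS libraries after tBHP lay below the mean of the unexposed PBS libraries, and the 3 of each HA group lay above the mean of their own. In PBS cells its log2 response was -0.029 and did not pass (95% interval -0.15 to 0.093, adjusted p = 0.704 in limma), with the 3 libraries after tBHP at -0.050, -0.013 and -0.023 from the unexposed mean. In cNSF-HA cells it was 0.16, with libraries at 0.093, 0.13 and 0.27, and in fNSF-HA cells it was 0.20, with libraries at 0.27, 0.17 and 0.15. The difference between responses did not pass the test of the difference in limma: it was 0.19 for cNSF-HA against PBS (adjusted p = 0.999) and 0.23 for fNSF-HA against PBS (adjusted p = 0.667). Both comparisons share the PBS libraries. Without the GC and length trend EIF3H passed as a rise in all 3 responses, at 0.33 in PBS, 0.49 in cNSF-HA and 0.39 in fNSF-HA cells, so the opposite signs were not seen in that fit, and its difference between fNSF-HA and PBS after tBHP was 0.03 in place of 0.21.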

How the results depend on the processing

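Of 864 alternatives for the named members' responses, 796 kept direction and side of the threshold, 36 lost a call, 18 gained one and 14 turned direction; the causes were not tested. With the GC and length trend removed 26 members rose in cNSF-HA (28.2% of all genes) and 20 in fNSF-HA cells (27.6%) (27 and 20 with a replicate block as well), and the member medians were 0.092 (PBS), 0.12 (cNSF-HA) and 0.072 (fNSF-HA). EIF4A2 then rose, at 0.15 in PBS and 0.32 in cNSF-HA cells. Using only the groups compared, 6 members fell in fNSF-HA cells (16.7% of all genes) and 9 were called for cNSF-HA against fNSF-HA without tBHP (7.16% of all genes; 8 and 6.88% with the 9 libraries of that state). For fNSF-HA against PBS after tBHP, DESeq2 called 4 members (3.30% of all genes) and the replicate block 2 (0.446%). Member medians were -0.076 (PBS) and -0.026 (cNSF-HA) with quantile scaling, 0.043, 0.085 and 0.079 with edgeR, and 0.021 (fNSF-HA) with DESeq2. With edgeR, which differs in both model and TMM scaling, the median of all genes was 0.075, 0.065 and 0.042. Leaving out 1 library gave 8 to 13 risers in PBS, 6 to 13 fallers in fNSF-HA cells, 7 to 12 risers and 5 to 11 fallers in all 3 responses, and 0 to 15 (fNSF-HA against PBS) and 0 to 20 (cNSF-HA against fNSF-HA) calls after tBHP. Medians then ran from -0.036 to 0.0024, -0.019 to 0.026 and 0.0079 to 0.061. Responses that turned were EIF2AK3 in cNSF-HA cells (-0.044 to 0.20 leaving out 1 library, also -0.013 and -0.028), EIF4A1 in fNSF-HA cells (0.050 with quantile scaling, 0.032 with edgeR, -0.12 to 0.083 and 0.066 leaving out 1) and EIF4A2 in fNSF-HA cells (-0.027 with quantile scaling, -0.10 to 0.12 and -0.012 leaving out 1). None of these turned responses had passed, except that of EIF4A2 in PBS cells. Members whose libraries were not printed by the rule above were outside this count. Among them, EIF2S1 had passed as a fall in cNSF-HA cells and changed sign without the GC and length trend. Of 45 correlations between the deviations of same-numbered libraries, 7 passed 0.1 (-0.12 to 0.33). The highest was between replicate 2 of PBS + tBHP and replicate 2 of fNSF-HA + tBHP. Libraries of different numbers were not compared, so whether the numbers pair the libraries was not tested.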
